A study of Rattus norvegicus with 12 samples.

Results

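The interleukin-6 (IL-6) family was examined in bone of the rat calvaria, the roof of the skull, as 10 genes: the ligand genes Il6, Il11, Lif, Osm and Clcf1, the receptor genes Il6st, Il6r, Osmr and Lifr, and the inhibitor gene Socs3. They were taken by name, as every non-control probe whose gene name was one of these 10, out of 34912 gene names on the array. All 10 had a probe, 19 in all, and 16 of the 19 passed the filter on dim probes, which asked for a signal well above background on at least 4 of 12 arrays. These 16 probes covered 9 genes, and Il6 was the gene without one. The study compared 3 groups of 4 arrays, all from rats aged 10 weeks, whose strain and sex are not given in the labels. Laser bone carried a rectangular defect of 8 by 3 mm cut by an Er:YAG laser, whose infrared light removes hard tissue, with pulses of 127 mJ output energy at a rate of 20 Hz. Bur bone carried a defect of the same area drilled with a rotating bur, and both were sampled 72 h after surgery. Control bone was not ablated: the treatment protocol says that its periosteum had been taken off, while the sample names call it untreated, and the labels do not settle which holds. The labels also do not say whether samples came from separate animals, so the p-values speak only to variation among these samples, part or all of which may be technical.

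Cytokines of this family signal through a shared receptor subunit, gp130, which Il6st encodes. Each ligand reaches gp130 with a partner receptor: IL-6 binds the product of Il6r, IL-11 binds that of Il11ra1, LIF and CLCF1 need that of Lifr, and oncostatin M, the product of Osm, uses that of Osmr or Lifr. The receptors activate JAK kinases and the transcription factor STAT3, which induces Socs3, whose protein binds gp130 and JAK and shuts the signal off. In bone these cytokines are known to act on osteoblasts and osteocytes and to raise RANKL, the osteoclast growth factor encoded by Tnfsf11.

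The sequences the results turn on are given first. The Il11 and Il6 promoters, the 250 bases before each start site in RefSeq's table for GRCr8, are shown because Il11 was the ligand gene with the largest change and Il6 is the ligand that names the family. The oligo of Il6 is shown because it is the gene's only probe and did not pass the filter. That of Osmr is shown because it is the gene's only kept probe and was near background on most control arrays.
Il11 promoter, GRCr8 chr1:78098372-78098621, plus strand: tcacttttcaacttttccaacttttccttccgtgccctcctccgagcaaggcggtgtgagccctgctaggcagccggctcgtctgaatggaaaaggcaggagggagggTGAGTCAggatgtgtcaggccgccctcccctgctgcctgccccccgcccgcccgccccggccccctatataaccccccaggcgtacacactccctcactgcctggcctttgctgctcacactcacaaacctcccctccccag
Il6 promoter, GRCr8 chr4:5894576-5894825, minus strand: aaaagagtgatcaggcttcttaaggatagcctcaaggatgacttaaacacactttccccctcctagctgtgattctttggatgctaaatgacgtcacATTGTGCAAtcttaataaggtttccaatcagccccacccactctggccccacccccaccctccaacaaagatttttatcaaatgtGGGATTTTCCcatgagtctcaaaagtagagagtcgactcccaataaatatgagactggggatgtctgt
Il6 probe, rn4 chr4:457279-458563, minus strand: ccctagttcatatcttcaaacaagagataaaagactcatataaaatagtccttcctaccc
Osmr probe, rn4 chr2:56080710-56080769, minus strand: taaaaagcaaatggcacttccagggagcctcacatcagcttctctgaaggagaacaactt

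Capitals mark matches to motifs searched on both strands. Il11 had an AP-1 match (TGANTCA) 142 to 136 bases before its start. AP-1 is the dimer of Fos and Jun proteins. Il6 had a C/EBP match (TTGCNNAAT, read on the other strand) at 153 to 145 bases and an NF-kappaB match at 68 to 59 bases before its start. Of 33469 promoter windows of 250 bases in the table, 6.34% held the AP-1 motif, 2.26% the C/EBP motif, 0.314% the NF-kappaB motif and 7.67% the STAT motif TTCNNNGAA. Of the 7 members with a window, none had the STAT motif, and Osmr had an AP-1 match 33 to 27 bases before its start. The windows of Il6st, Il6r, Lifr and Socs3 lay wholly, and that of Osmr nearly wholly, inside the annotated gene and are not printed. For these genes the lack of a STAT match does not describe the bases upstream of the annotated gene. Such matches describe letters and not bound sites. The oligo of the Il6 probe has 60 bases and spans 1285 bases of genome, so its ends lie apart in the gene. By the probes' rn4 positions, Lif and Osm are neighbours on chromosome 14, 29.7 kb apart, and Osmr and Lifr lie 396 kb apart on chromosome 2.

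Of non-control spots, 66.7% to 67.8% were well above background on control arrays, 70.3% to 73.8% on bur arrays and 67.7% to 72.5% on laser arrays. The part of this difference in control readings near background was not tested. No non-control spot was saturated, and the number of arrays limits the precision. All 6 osteoblast markers and 4 of 5 osteocyte markers were well above background on all 12 arrays, while the osteocyte marker Fgf23 was not on any. The slide of the 4 control arrays held no treated array. A second slide held the bur arrays in column 1 and the laser arrays in column 2. In a comparison with control, slide and group cannot be told apart, and between laser and bur the same is true of slide column and group. Along the leading principal component (49.5% of variance) control replicate 3 was at -6.67, next to the treated arrays at 7.43 to 53.1, while the other controls were at -122, -102 and -55.5. As these are bulk samples, fewer cells of a type and less RNA per cell cannot be told apart.

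Laser-ablated bone was set against control bone to see which family genes differed after ablation. Socs3 was 2.01-fold higher. Il11, the interleukin-11 gene, was 7.46-fold higher as processed here, though 2 of 4 control arrays read it near background. The size of this fold depended on the processing. On the log2 scale it was 2.90 here, 0.78 with normexp background correction and 1.5 in the authors' deposited table. Osmr was also called higher, but only 1 of 4 control arrays gave it a signal well above background, and it passed the filter through its treated arrays, so no fold is given. The other 6 tested members did not pass. Thus 3 of 9 members were called higher and 0 lower at a limma adjusted p under 0.05, adjusted over all 22718 genes tested. Of these, Il11 and Osmr met the filter only with the help of their treated arrays. With probes detected on all 12 arrays they were not tested, and 1 member passed. Among all genes 22.3% were called, 9.26% higher and 13.0% lower. The same 3 members had an unadjusted limma p under 0.05, against 38.9% of all genes. Il11 and Socs3 were also the 2 members whose laser arrays all lay above all control arrays, against 8.87% of genes. The median change of the 9 members was 0.36 on the log2 scale, beside 0.02 for all genes.

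Bur-drilled bone was set against the same control arrays, so the comparisons with control are not independent. Socs3 was 2.16-fold higher, Osmr was called higher with the same limit on its control signal, and the other 7 tested members did not pass. Thus 2 of 9 members were called higher and 0 lower, while 26.2% of all genes were called, 9.99% higher and 16.2% lower. With probes detected on all 12 arrays, where Osmr was not tested, 1 member passed. At an unadjusted limma p under 0.05 there were 4 members, with Il11 and Clcf1 added, against 41.0% of genes. Socs3 was the 1 member without overlap between the groups, a pattern that 9.60% of genes showed in the higher direction. The median member change was 0.04, beside 0 for all genes.

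Laser and bur bone were compared directly to see whether the tool mattered. No member passed, and limma called 0% of genes in either direction, with 2.53% of genes (574) at an unadjusted p under 0.05. Il11 was the 1 member under that unadjusted level. It was also the 1 member whose laser arrays all exceeded the bur arrays, which 1.57% of genes did. The median member change was 0.01. The authors' deposited table also calls 0 of its 23269 lines in this comparison.

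**Figure D1:**
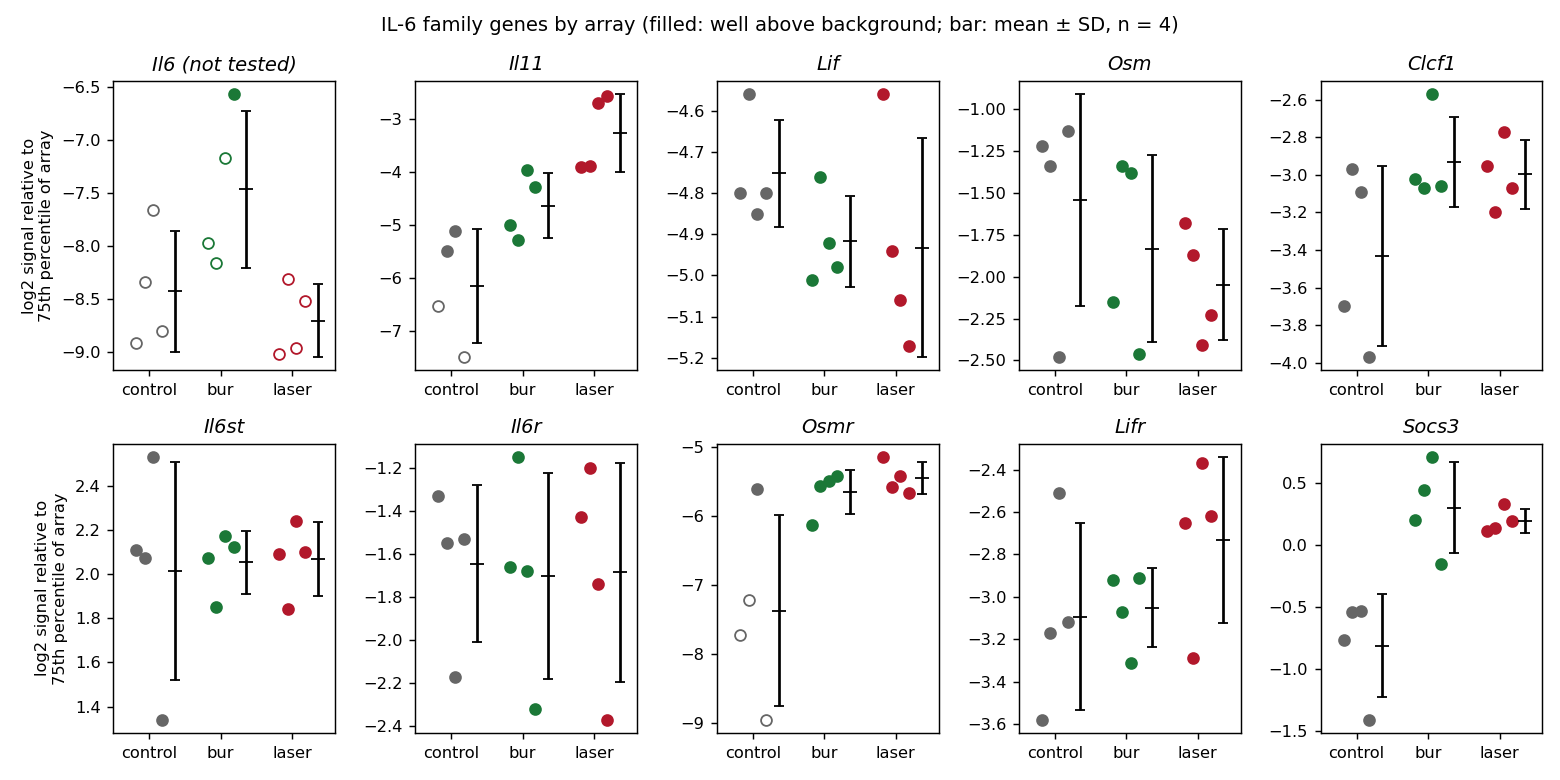
Log2 signal of each member, relative to the 75th percentile of its array (vertical axes, each on its own scale), on the 12 arrays, with the mean ± SD of 4 arrays per group beside the points. Open points were not well above background. Il11 has its lowest mean in control and its highest in laser, though control and bur points overlap and only 2 control points are filled. Osmr and Socs3 are high in both treated groups, and Il6 has a single filled point.

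Among the ligands, Il11 encodes a cytokine that acts on bone-forming cells through gp130. Its probe lies at rn4 chr1:67792503-67792562 on the plus strand. The level of Il11, as a log2 ratio to the 75th percentile of signals on its array, was -6.53, -5.49, -5.12 and -7.50 on control replicates 1 to 4, -5.01, -5.28, -3.97 and -4.28 on the bur arrays, and -3.91, -3.88, -2.70 and -2.56 on the laser arrays. Every laser array was above every bur and control array, whereas bur replicate 2 lay below control replicate 3. The control mean was -6.16 ± 1.08, the bur mean -4.63 ± 0.61 and the laser mean -3.26 ± 0.73 (SD, n = 4 each). Laser minus control was 2.90 on the log2 scale (SE 0.53, 95% interval 1.75 to 4.05, limma adjusted p = 0.00855). Against control, bur bone stood 1.53 higher (interval 0.37 to 2.68) and just missed the threshold (limma adjusted p = 0.0518). Laser minus bur was 1.37 (interval 0.22 to 2.53), with an unadjusted limma p of 0.0235 and an adjusted p of 0.9998. Within replicate numbers 1 to 4, laser was above bur by 1.1, 1.40, 1.27 and 1.73 for Il11. As every laser array exceeded every bur array, any pairing would give this direction. With the replicate number as a block the Il11 difference had an interval of 0.29 to 2.46, an unadjusted limma p of 0.0188 and an adjusted p of 0.9997. Thus it did not pass over all genes in either fit, although the laser and bur arrays did not overlap.

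The Il11 probe was well above background on all 8 treated arrays but on only 2 of the 4 control arrays, replicates 2 and 3. The size of its rise over control thus rests partly on signal near background. Laser minus control passed in 21 of 21 other settings, at 0.78 to 3.25, the low value coming from normexp background correction with an offset of 50, which moved the median of all genes to -0.08. Bur minus control was -0.02 with normexp, where the median of all genes was -0.24, and passed in 4 of 21 settings. Of these, the fit with the replicate number as a block gave a limma adjusted p of 0.0424, and that without control replicate 3 gave 1.87 (limma adjusted p = 0.0184, against up to 0.947 over the settings). The authors' deposited table gives Il11 as 1.5 for laser against control (adjusted p = 0.00383) and 0.61 for bur against control (adjusted p = 0.068).

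Il6 itself, the gene of the family's founding cytokine, was not measured well enough to compare. Its single probe was well above background on 1 of 12 arrays, bur replicate 4, at -6.57. The other 11 arrays lay between -9.02 and -7.17. On 9 of these 11 the Il6 signal was below that of the dimmest probe well above background on the same array, a level of -8.17 to -6.73 over the 12 arrays. The Il6 signal averaged -8.43 ± 0.57 over control, -7.47 ± 0.73 over bur and -8.70 ± 0.35 over laser arrays (SD, n = 4 each). These values are near background and give no fold.

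Lif and Osm encode leukaemia inhibitory factor and oncostatin M, the latter a product of myeloid and T cells. Lif stood at -4.80, -4.56, -4.85 and -4.80 on the control arrays, -5.01, -4.76, -4.92 and -4.98 with bur, and -4.56, -4.94, -5.06 and -5.17 with laser. The 3 groups overlapped, and Lif differed from control by -0.18 with laser (interval -0.50 to 0.14, limma adjusted p = 0.393) and by -0.16 with bur (interval -0.48 to 0.16, limma adjusted p = 0.419). Osm stood at -1.22, -1.34, -2.48 and -1.13 on the control arrays, -2.15, -1.34, -1.38 and -2.46 with bur, and -1.68, -1.87, -2.41 and -2.23 with laser. Control replicate 3 was the lowest Osm array of all. Osm differed from control by -0.51 with laser (interval -1.25 to 0.24, limma adjusted p = 0.29) and by -0.29 with bur (interval -1.03 to 0.45). Without control replicate 3, laser minus control was -0.82 for Osm and passed (limma adjusted p = 0.046, against up to 0.503 over the settings), the single setting of 22 in which it did.

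Clcf1 encodes cardiotrophin-like cytokine, a ligand that acts through gp130 and the product of Lifr. Its level was -3.70, -2.97, -3.09 and -3.97 on the control arrays, -3.02, -3.07, -2.57 and -3.06 with bur, and -2.95, -3.20, -2.77 and -3.07 with laser. Control replicates 1 and 4 were low, and control replicates 2 and 3 lay among the treated arrays. The Clcf1 differences from control were 0.43 with laser (interval -0.06 to 0.92, limma adjusted p = 0.176) and 0.50 with bur (interval 0.01 to 0.99, limma adjusted p = 0.115). The authors' deposited table gives 0.40 for bur against control with an adjusted p of 0.0365.

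**Figure D2:**
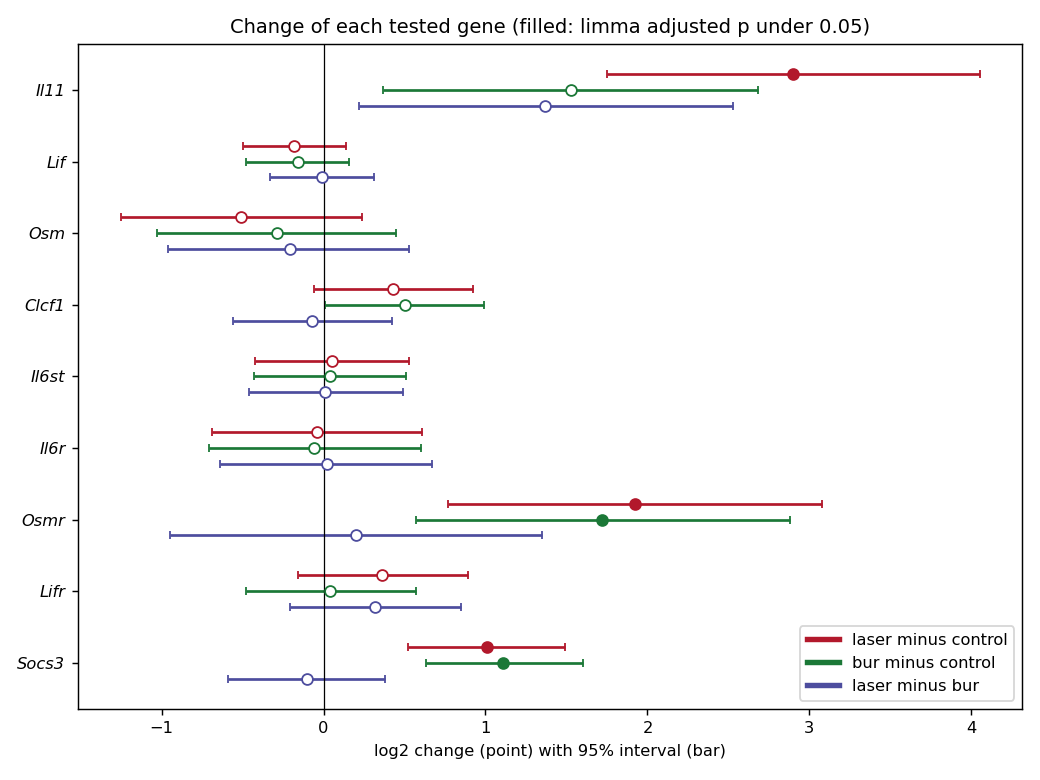
Log2 change (horizontal axis, point) of the 9 tested members with its 95% interval (bar) in the 3 comparisons, filled where the limma adjusted p was under 0.05. Il11 (2.90), Osmr (1.92) and Socs3 (1.01) are filled in laser minus control, Osmr (1.72) and Socs3 (1.11) in bur minus control, and no point in laser minus bur.

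Among the receptors, Osmr encodes the subunit that pairs with gp130 to bind oncostatin M. The Osmr level was -7.72, -7.21, -5.61 and -8.95 on the control arrays, -6.13, -5.56, -5.49 and -5.42 with bur, and -5.14, -5.58, -5.42 and -5.66 with laser. Control replicates 1, 2 and 4 lay below every treated array, and control replicate 3 lay among them. The means were -7.37 ± 1.38, -5.65 ± 0.32 and -5.45 ± 0.23 (SD, n = 4 each), so the spread was widest in control. Control replicates 1, 2 and 4 were below the dimmest probe well above background on the same array (-7.42, -6.73 and -7.44), so the changes of Osmr from control are not measured folds. On these values Osmr rose by 1.92 on the log2 scale with laser (SE 0.53, interval 0.77 to 3.08, limma adjusted p = 0.028) and by 1.72 with bur (interval 0.57 to 2.88, limma adjusted p = 0.034). Laser minus bur was 0.20 (interval -0.95 to 1.35).

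The Osmr call depended on dim signal. The printed Osmr oligo rose well above background in 1 control array, replicate 3, and in all 8 treated arrays, while the other Osmr probe did so in 0 of 12. With normexp the Osmr changes were 0.04 with laser and -0.19 with bur, and the authors' deposited table gives 0.33 in each comparison (adjusted p = 0.0782 and 0.0715). Laser minus control passed in 13 of 21 settings and failed, among others, without control replicate 1 (1.81), control replicate 4 (1.40) or laser replicate 2 (1.97), 3 (1.91) or 4 (2.00). Bur minus control passed in 12 of 21 and failed without control replicate 1 (1.61), 2 (1.78) or 4 (1.20) or bur replicate 2 (1.69), 3 (1.67) or 4 (1.65).

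Il6st, the gene of gp130, averaged 2.01 ± 0.50 over control, 2.05 ± 0.14 over bur and 2.07 ± 0.17 over laser arrays (SD, n = 4 each). It stood at 2.11, 2.07, 2.53 and 1.34 on the control arrays, 2.07, 1.85, 2.17 and 2.12 with bur, and 2.09, 1.84, 2.24 and 2.10 with laser. Control arrays held both the highest and the lowest Il6st value. Its changes were 0.05 with laser (interval -0.42 to 0.53, limma adjusted p = 0.872) and 0.04 with bur (interval -0.43 to 0.51, limma adjusted p = 0.909). The intervals of Il6st leave room for a change of about 0.5 on the log2 scale, which is the size its second probe gave, at 0.42 with laser and 0.53 with bur, neither of which passed.

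Il6r encodes the receptor that binds IL-6, found on hepatocytes and leukocytes and also shed in soluble form. Its level was -1.33, -1.55, -2.17 and -1.53 on the control arrays, -1.66, -1.15, -1.68 and -2.32 with bur, and -1.43, -1.20, -1.74 and -2.37 with laser. The groups overlapped fully. The Il6r changes were -0.04 with laser (interval -0.69 to 0.61) and -0.06 with bur (interval -0.71 to 0.60). Its second kept probe had the opposite sign, at 0.28 in each comparison with control, and did not pass either.

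Lifr encodes the receptor subunit for LIF, CLCF1 and oncostatin M. Its level was -3.58, -3.17, -2.51 and -3.12 on the control arrays, -2.92, -3.07, -3.31 and -2.91 with bur, and -2.65, -3.29, -2.37 and -2.62 with laser. Laser replicates 1 and 4 were above 3 of the 4 control arrays and laser replicate 3 was above all 4, while laser replicate 2 kept the groups overlapping. Lifr differed from control by 0.36 with laser (interval -0.16 to 0.89, limma adjusted p = 0.286) and by 0.04 with bur (interval -0.48 to 0.57). Its 3 probes disagreed in sign with laser, since probe A_44_P1102353 gave -0.46 while the others gave 0.36 and 0.29, and none of the 3 passed.

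Socs3 is the feedback inhibitor of gp130 signalling, and it was called higher in both comparisons with control. Its brightest probe, printed 10 times on each array, lies at rn4 chr10:107957211-107957270 on the minus strand. The Socs3 level was -0.77, -0.54, -0.53 and -1.41 on the control arrays, 0.20, 0.44, 0.71 and -0.15 with bur, and 0.11, 0.14, 0.33 and 0.19 with laser. All 8 treated arrays were above all 4 control arrays, and the laser arrays spanned a narrower range than the bur arrays and lay within it. Socs3 averaged -0.81 ± 0.41, 0.30 ± 0.37 and 0.19 ± 0.10 (SD, n = 4 each). It rose by 1.01 on the log2 scale with laser (SE 0.22, interval 0.52 to 1.49, limma adjusted p = 0.0161) and by 1.11 with bur (interval 0.63 to 1.60, limma adjusted p = 0.00801). Laser minus bur was -0.10 (interval -0.59 to 0.38), which leaves room for a difference of a size within that interval. No gene passed in that comparison.

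Socs3 passed in 22 of 22 other settings in each comparison with control, at 0.77 to 1.1 with laser and 0.85 to 1.26 with bur. Its second probe gave smaller changes, 0.54 with laser (limma adjusted p = 0.0522 over 29775 probes) and 0.58 with bur (limma adjusted p = 0.0369). The authors' deposited table gives 1.02 and 1.11 for the first Socs3 probe (adjusted p = 0.00295 and 0.00146) and 0.44 and 0.49 for the second (adjusted p = 0.0265 and 0.0164).

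**Figure D3:**
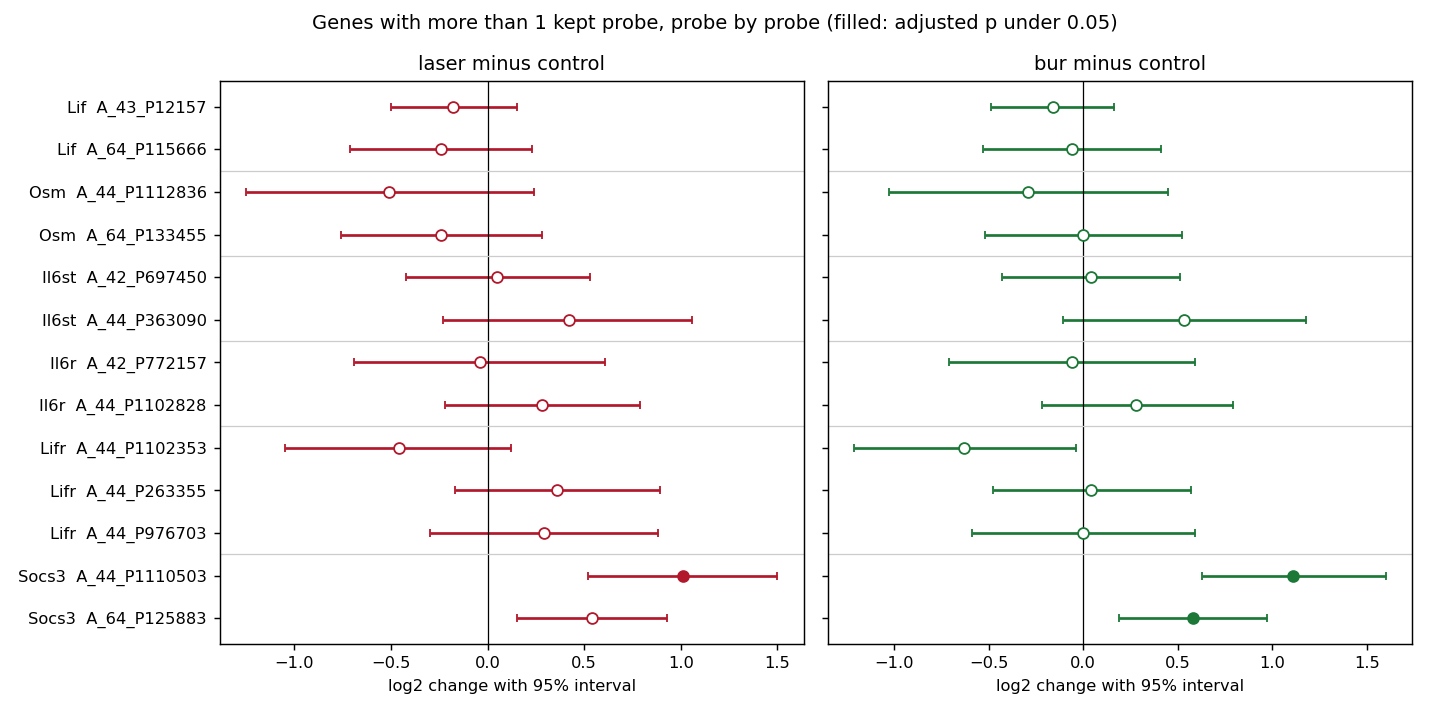
Log2 change (horizontal axis) with its 95% interval for each kept probe of the 6 members that have more than 1, in laser minus control and bur minus control, filled where the limma adjusted p over all kept probes was under 0.05. Both Socs3 probes lie above 0 in both comparisons, and one Lifr probe lies lower (-0.46 and -0.63) than the gene's others (0.36 and 0.29 with laser, 0.04 and 0 with bur).

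The wider pathway was described with 4 lists of genes. Of 11 further ligands and receptors, 10 were on the array and 7 were tested. With bur 0 of 7 rose and 1 fell, beside 9.99% of all genes called higher and 16.2% lower. Ctf2, a cardiotrophin gene, fell by 0.67 (limma adjusted p = 0.0276, passing in 14 of 22 settings). Il11ra1, the receptor gene for IL-11, averaged -3.24 ± 1.28 over control, -2.32 ± 0.27 over bur and -2.30 ± 0.58 over laser arrays (SD, n = 4 each) and passed in neither comparison. The list medians were -0.10 with laser and -0.06 with bur.

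JAK, STAT and adaptor genes changed in both directions, by less than 1 on the log2 scale. Of 14 tested, 2 rose and 3 fell with laser, with a median of -0.17, and 1 rose and 4 fell with bur, with a median of -0.12. Beside these 5 calls of 14 in each comparison, 22.3% of all genes were called with laser and 26.2% with bur. Jak2, the kinase gene, rose by 0.60 with laser (limma adjusted p = 0.0188) and by 0.59 with bur (limma adjusted p = 0.0139). Stat3, the gene of the transcription factor through which gp130 acts, fell by 0.52 with laser (limma adjusted p = 0.0216) and by 0.65 with bur (limma adjusted p = 0.0078). Mapk3, the gene of the kinase ERK1, fell by 0.58 with laser and by 0.86 with bur. Shc1, an adaptor gene, rose by 0.52 with laser, and Stat5a fell by 0.60 with bur. The counts rested on single arrays. With laser, leaving out control replicate 1, 2, 3 or 4 gave 0, 3, 8 and 2 of 14 calls, and leaving out laser replicate 2 or 3 gave 1 and 0. With bur, 3 passed without control replicate 1 or 4 or bur replicate 1, 3 or 4.

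Of 14 further inhibitors and shedding enzymes, 2 rose and 2 fell with laser, and 1 rose and 2 fell with bur, with medians of 0.07 and -0.05. The shares over all genes were 9.26% higher and 13.0% lower with laser, and 9.99% and 16.2% with bur. Adam17, the gene of the protease that sheds IL-6 receptors and other surface proteins, rose by 0.94 with laser (limma adjusted p = 0.0135) and by 0.89 with bur (limma adjusted p = 0.0107). Adam17 passed in 22 of 22 other settings in each comparison. Ptpn1, a phosphatase gene, fell by 0.69 and by 0.81, and Socs7 fell by 0.65 and by 0.67. With laser the 4 calls became 1 without laser replicate 2 or 3, 2 without control replicate 1 or 4 and 9 without control replicate 3, and with bur the 3 calls became 6 without control replicate 3. Socs1, the closest relative of Socs3 in action on JAK kinases, was the other gene counted as higher with laser. Its signal cleared background on 2 of 4 laser, 2 of 4 bur and 0 of 4 control arrays, so that it passed the filter through treated arrays alone. Its means of -7.92 in control and -6.58 in laser bone (limma adjusted p = 0.025) were near background and are given without a fold. Over the 16 settings in which Socs1 was measured, its laser change ran from -0.05 to 1.53.

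Genes that STAT3 is known to induce, some of them induced by other factors too, formed the last list. Of 30 listed, 25 were tested, and 8 rose and 0 fell with laser while 8 rose and 3 fell with bur, with medians of 0.44 and 0.21. Among all genes 9.26% were called higher and 13.0% lower with laser, and 9.99% and 16.2% with bur. Cish was in this list and in that of the inhibitors. Ccl2, the gene of a chemokine that draws monocytes, rose by 2.55 with laser (SE 0.73, limma adjusted p = 0.0327) and by 3.23 with bur (limma adjusted p = 0.0122). Fos, an AP-1 subunit gene, rose by 1.87 and 2.33 (limma adjusted p = 0.0239 and 0.00893), and Timp1, a metalloproteinase inhibitor gene, by 1.52 and 1.55. Tnfsf11, the RANKL gene, rose by 1.87 and 1.58 (limma adjusted p = 0.0213 and 0.0288), but 3 of its 4 control arrays were near background and its change went down to 0.09 and -0.15 over 21 other settings. The acute phase gene Hp fell by 1.51 with bur (limma adjusted p = 0.0451), and its change with laser was nearly the same, -1.49, but missed the threshold (limma adjusted p = 0.0526). None of the 25 passed between laser and bur. The count of 0 that fell with laser did not hold throughout: 2 fell with normexp, where 4 rose, 3 fell with the replicate block, the deposited log2 table or probes detected on all 12 arrays, 5 with array weights and 4 without control replicate 3. With only the 2 groups compared, 3 rose with laser. In bur against control 5 rose and 5 fell with normexp, and 0 fell without bur replicate 1 or 4. In laser against control 1 of the 25 rose without control replicate 1 or 4 or laser replicate 2 or 3, and 4 rose without laser replicate 4. In bur against control 4 rose without control replicate 1 and 5 without control replicate 4 or bur replicate 1 or 3.

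**Figure D4:**
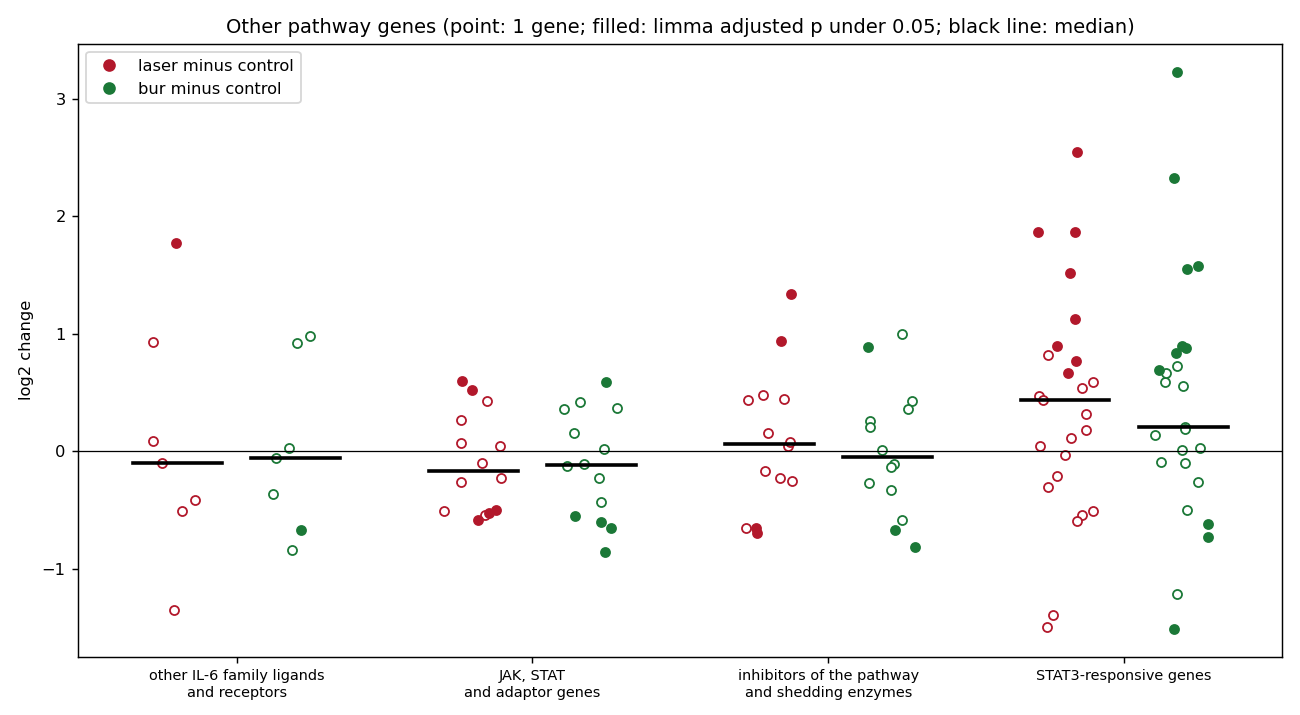
Log2 change (vertical axis) of each tested gene in the 4 pathway lists, laser minus control in red and bur minus control in green, filled where the limma adjusted p was under 0.05, with a black line at the list median. The list of STAT3-responsive genes has 8 filled points above 0 in each comparison, Ccl2 highest at 2.55 and 3.23, and the JAK, STAT and adaptor genes stay within 1 of 0.

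Markers of cell types moved in the same comparisons as Il11, Osmr and Socs3. For the counts below, 9.26% of all genes were called higher with laser and 9.99% with bur. Of 7 macrophage and monocyte markers, 2 rose with laser and 4 with bur, and their summed level (in units of the array's 75th percentile) was 7.21 to 12.8 in control, 12.8 to 24.2 in bur and 12.5 to 20.9 in laser bone. Of 4 tested osteocyte markers 3 rose with laser and 0 with bur, with sums of 10.9 to 17.1, 18.8 to 44.7 and 18.5 to 59.7. Their mean log2 level was -1.20 to -0.77 in control, -0.90 to -0.03 in bur and -0.62 to 0.66 in laser bone. Of 6 osteoblast markers 2 rose with laser and 0 with bur, with sums of 427 to 610, 370 to 546 and 423 to 576. These sums are led by Bglap and Col1a1, whose control means were 7.97 and 7.79 on the log2 scale. The mean log2 level of the 6 was 1.98 to 2.40 in control, 2.05 to 2.61 in bur and 2.53 to 2.90 in laser bone. Fibroblast and periosteal markers (5), skeletal muscle markers (5) and endothelial markers (5) did not pass, apart from 1 endothelial marker that fell with bur. Their sums in control, bur and laser bone were 12.6 to 87.3, 43.5 to 130 and 63.5 to 110 for the first, 0.444 to 3.46, 0.352 to 2.17 and 0.354 to 1.01 for the second, and 7.09 to 8.48, 4.31 to 7.50 and 4.70 to 7.86 for the third.

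Marrow and fat cell markers were lower in treated bone. Beside the counts that follow, 13.0% of all genes were called lower with laser and 16.2% with bur. All 6 erythroid markers fell in both comparisons, with sums of 54.1 to 278 in control, 10.0 to 55.2 in bur and 16.7 to 62.2 in laser bone. Of 7 neutrophil markers 3 fell with laser and 2 with bur, with sums of 192 to 541, 118 to 201 and 48.4 to 259. Of 6 T cell markers 4 fell in each comparison and 1 rose with laser, with sums of 1.16 to 2.37, 0.726 to 0.912 and 0.378 to 0.878. Of 5 adipocyte markers 4 were tested and 3 fell in each comparison, with sums of 2.36 to 4.38, 1.58 to 3.83 and 1.33 to 3.46. The mean log2 level of these 4 was -2.79 to -1.51 in control, -5.25 to -3.25 in bur and -5.43 to -3.41 in laser bone. Of these markers, Lep was well above background on 1 of 4 bur and 1 of 4 laser arrays, and Cidec on 1 and 0. The part of these shifts in the changes of the family genes was not tested.

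The genes most like each member were found by Pearson's r over the 12 arrays among 14440 gene symbols. This is a description, since differences between groups and between slides enter every r. Il11 was like Selenom and Rapgef4 (r = 0.96 each). Osmr was most like Map4k3 (0.98), Xylb and Slx4ip (0.97 each), and Socs3 was most like Washc5 (0.97), Sfxn3 and Havcr2 (0.96 each). Havcr2 encodes the immune receptor TIM-3. Il6r was like Fmnl1 and Arap1 (0.92 each), and Osm was most like Mctp2 (0.93), Ikbkb and Fgr (0.92 each). Fgr is a Src family kinase gene of myeloid cells. For Clcf1 the closest were Nckipsd (0.97), Usp36 (0.96) and Arl10 (0.94), for Il6st Scn3a (0.95), Dnm3 and Tanc1 (0.93 each). For Lif they were Nkain3 (0.92), Msl1 (0.90) and C1rl (0.88), and for Lifr Fbxo25 (0.91), Znrf4 and Ulk2 (0.90 each).

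**Figure D5:**
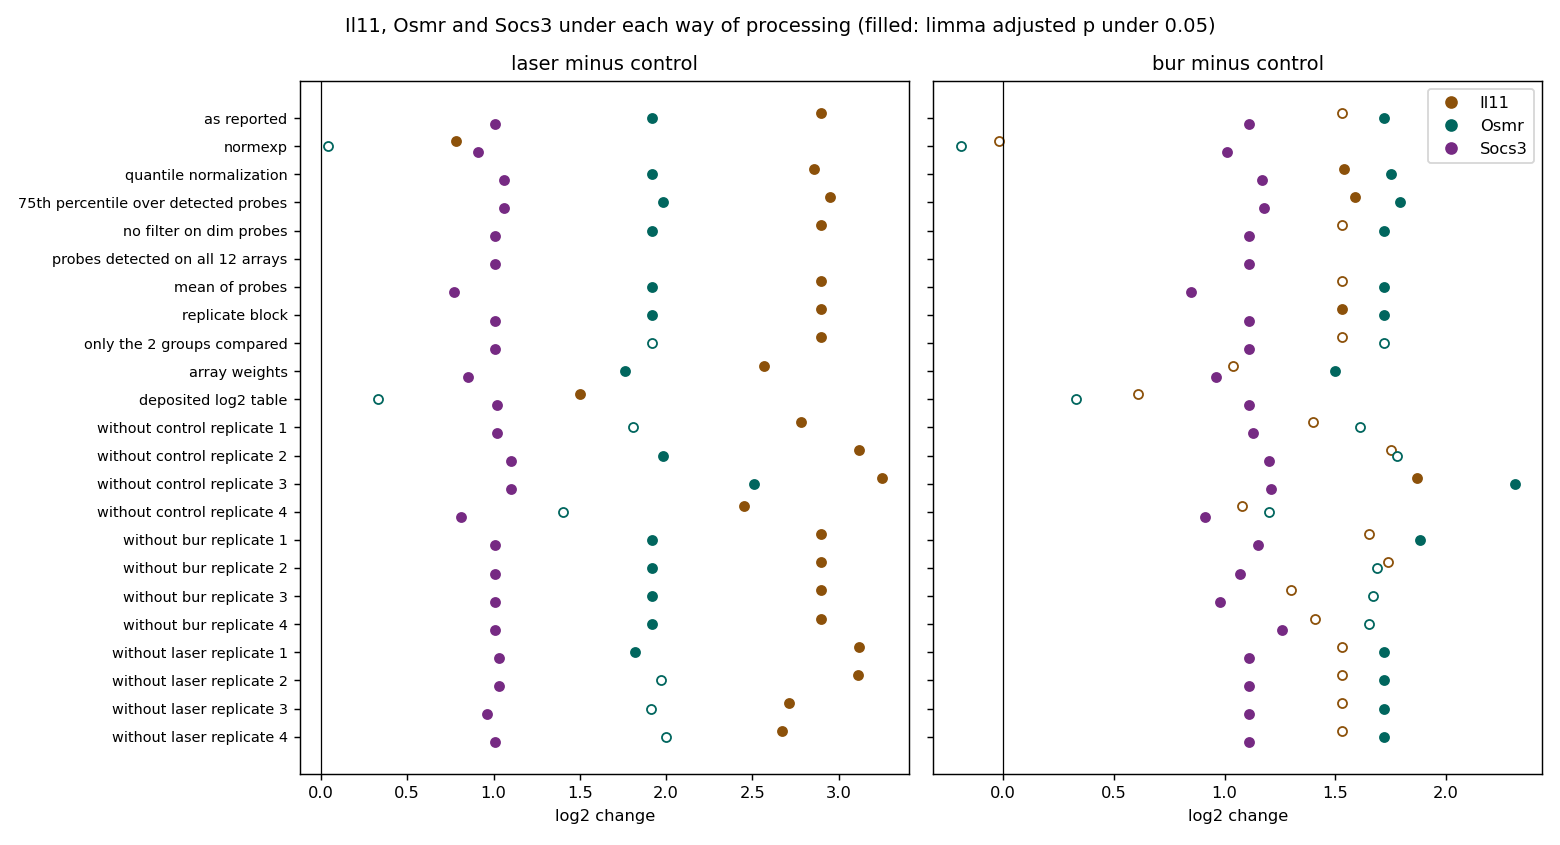
Log2 change (horizontal axis) of Il11, Osmr and Socs3 in laser minus control and bur minus control, as reported and under each other way of processing (vertical axis), filled where the limma adjusted p was under 0.05. Socs3 stays between 0.77 and 1.26 and filled throughout, while normexp brings Osmr to 0.04 and -0.19 and Il11 to 0.78 and -0.02.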

How the data were processed

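Spot intensity on a linear scale was deposited for 12 arrays of 1 colour (Cy3). Per the file headers it came from Agilent Feature Extraction 11.0.1.1, with background subtracted within the array and no scaling between arrays. The authors also deposited log2 values (column medians 7.15 to 7.29) and tables of their own comparisons, holding log2 changes and p-values. The sources used here do not say how these were made, and their centring is unknown. Over 23249 of its 24920 lines, the deposited log2 table followed the arrays' median spot signals with a Spearman correlation of 0.978 to 0.982.

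Values here were log2 of the processed intensity less the log2 75th percentile of that array, taken without control spots. Flagged spots (0.54% to 1.06%) were left out, unless every spot of a probe was flagged, and spots of a probe were averaged. Probes well above background on at least 4 arrays were kept, 29775 of 45598, and the brightest stood for each gene name. Differences were tested two-sided with limma 3.58.1 in R 4.3.3 (lmFit and eBayes on 12 arrays, a mean per group), with Benjamini-Hochberg adjustment over 22718 genes and 0.05 as the threshold. The code was tested on simulated data.

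The members and the gene lists were chosen with earlier results of these data known. Named genes were every member, up to 4 called genes of each list with the largest change per comparison, and the 3 symbols most like each member, and some genes that this rule took are left out. Il11ra1 was named after its values were seen, as the receptor gene of Il11. Hp also lies outside the rule, and is the STAT3-responsive gene with the largest called fall with bur. Alternatives were normexp (offset 50), quantile normalization, the percentile over detected probes, no filter, a filter on all 12 arrays, the mean of probes, a replicate block, only the 2 groups compared, array weights, the deposited log2 table and each array left out.

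The replicate number equals the slide row in every group. Deviations of same-numbered arrays from their group means correlated at 0.16 to 0.34 between laser and bur and 0.13 to 0.34 between laser and control. Between bur and control they correlated at -0.05 to 0.28. Arrays of different number gave -0.28 to 0.14, -0.32 to 0.12 and -0.43 to 0.32 in the same order. This check cannot tell a pairing of samples from the slide row, so whether the numbers pair samples is not settled. Every reported change comes from the fit without pairing, and the replicate block is an alternative.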

Additional observations from a re-analysis of the deposited data

Results flagged for a closer look

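Over 30 groups of 4 arrays, 10 members in 3 groups each, 2 arrays stood apart from the rest of their group by Dixon's criterion, which chance meets in about 1 of 20 groups. Osm on control replicate 3 was at -2.48, the lowest of its group, with a gap to the next array of 0.85 of the group's range. Clcf1 on bur replicate 3 was at -2.57, the highest of its group, with a gap of 0.907 of the range.

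The Il6 probe, which did not pass the filter and entered no comparison, was well above background on 1 array, bur replicate 4, at -6.57, and on none of the control arrays.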

How the results depend on the processing

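Of 588 refits of the 27 member changes, 527 kept direction and side of the threshold, 16 lost the call, 5 gained it and 40 changed sign. In laser minus control 3 members passed, but 1 with probes detected on all 12 arrays, where Il11 and Osmr were not tested, and 2 to 4 over the arrays left out. In bur minus control 2 passed, but 1 with normexp, that filter, only the 2 groups compared, the deposited log2 table or without control replicate 1, 2 or 4 or bur replicate 2, 3 or 4, a range of 1 to 3 over the arrays left out. The share of genes called with laser was 9.09% without the filter, 7.74% with only these groups and 5.51% to 35.3% over the arrays left out; for bur the arrays left out gave 12.3% to 37.1%. Laser minus bur had 0.00286% called without the filter.

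Signs changed in these settings, for changes that did not pass except that of Osmr. With normexp, bur minus control was -0.02 for Il11, -0.19 for Osmr and -0.10 for Lifr, laser minus control was 0.04 for Il6r, and laser minus bur was 0.01 for Clcf1 and 0.13 for Lif. Il6r against control was 0.01 for both treatments with the percentile over detected probes, 0.12 (laser) and 0.11 (bur) with the mean of probes and with the deposited log2 table, and 0 (bur) with quantile normalization. Lifr was -0.20 for bur with the mean of probes, Lif 0.07 for bur with the deposited table, and Il6st -0.03 for bur with array weights. In laser minus bur, Il6r was 0 with quantile normalization and -0.04 with array weights, Il6st -0.05 with the mean of probes and -0.03 with the deposited table, and Osmr 0 with that table. Leaving out single arrays moved laser minus control over -0.21 to 0.19 for Il6r and -0.17 to 0.23 for Il6st, bur minus control over -0.24 to 0.15 for Il6r, -0.18 to 0.21 for Il6st and -0.12 to 0.24 for Lifr, and laser minus bur over -0.19 to 0.25 for Il6r, -0.05 to 0.09 for Il6st, -0.18 to 0.07 for Lif, -0.15 to 0.05 for Clcf1 and -0.25 to 0.03 for Socs3. The cause was not tested.

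With the replicate number as a block, 3 members passed in each comparison with control and 0 between laser and bur. Among members it changed no call but that of Il11 in bur minus control. Called genes were 49.2% and 47.7% higher with the percentile over detected probes and 32.8% and 20.8% with normexp, against 41.6% and 38.2% as reported (laser, bur). Signal near background limits Il11 and Osmr in control bone and all of Il6.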
